A study of Mus musculus with 6 samples.

Results

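The genes described are 10 that control the exit from mitosis: the anaphase-promoting complex (APC/C) activators Cdc20 and Fzr1, its ubiquitin-conjugating enzyme Ube2c, its inhibitor Fbxo5, its substrate Pttg1, and the spindle checkpoint genes Bub1, Bub1b, Bub3, Mad2l1 and Ttk. They were chosen by name, with earlier results of these data known. Every probe set whose annotation gave exactly 1 of these symbols was taken. That took in 22 of the 45101 probe sets of the table and 10 of its 18193 named genes. The samples were C2C12 cells, a mouse myoblast line, held for 48 hours in methylcellulose suspension with 20% fetal calf serum to reach G0, the resting state. The control cells were a stable pool transfected with an shRNA against GFP, and the knockdown cells a stable pool with an shRNA against PRDM2, a PR domain zinc finger protein. Each group had 3 Affymetrix arrays, described as biological replicates; the labels do not tell whether these came from separate transfections, so that p-values measure the spread between these arrays. The question was how transcripts for leaving mitosis differ between arrested myoblasts with and without the PRDM2 shRNA.

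The APC/C is a ubiquitin ligase that ends mitosis by marking securin and the mitotic cyclins for destruction. Cdc20 activates it in mitosis, and Fzr1, also called Cdh1, activates it from late mitosis through G1, including in resting cells. The spindle checkpoint delays this step: Ttk (the kinase Mps1) and Bub1 act at kinetochores that lack microtubules, and Mad2l1 (Mad2), Bub1b (BubR1) and Bub3 bind and inhibit Cdc20. In cycling cells the transcripts of many of these genes peak in G2 and mitosis, and their promoters often carry an NF-Y box and a cell cycle homology region, CHR, which is read by repressor complexes in resting cells.

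**Figure D1:**
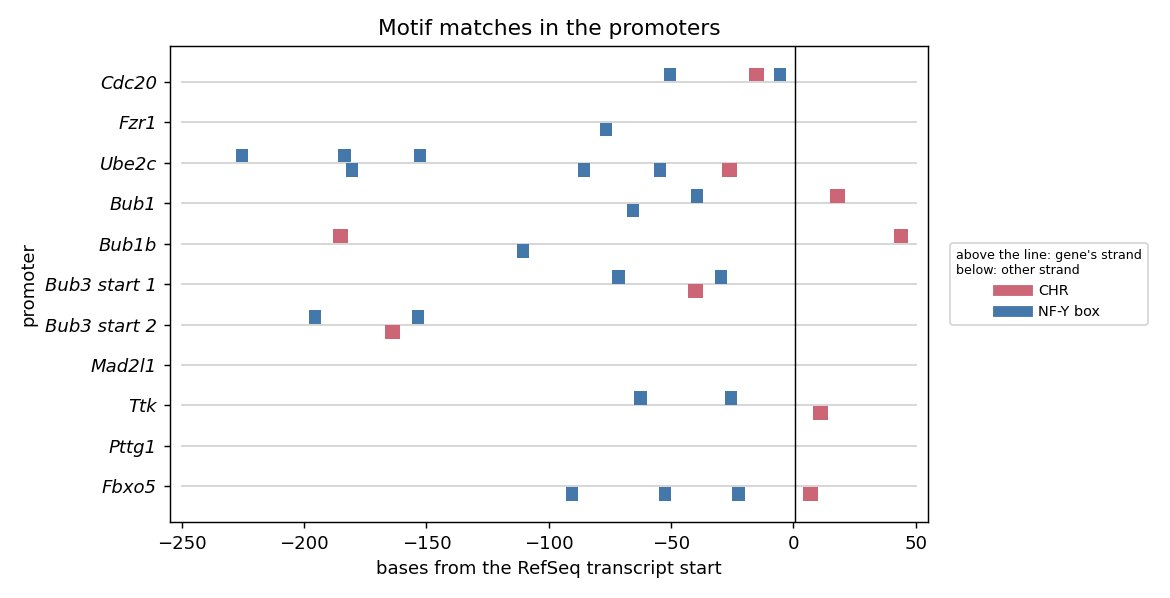
Motif matches in the 11 RefSeq promoters of the 10 genes, by position in bases from the transcript start (vertical line) on the horizontal axis and by promoter on the vertical axis; red boxes are CHR matches and blue boxes NF-Y boxes, above the line on the gene's strand and below it on the other. Cdc20 and Ube2c have a CHR just before the start, Fzr1 has an NF-Y box alone, and Mad2l1 and Pttg1 have neither.

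Promoter sequence is shown for 4 genes that contrast in the arrays: Cdc20 and Bub1, which fell most among the 10, and Fzr1 and Bub3, which did not pass the test. Each run holds the 120 bases before the RefSeq transcript start, 5′ to 3′ on the gene's strand, from GRCm38.p6, and capitals mark matches to the NF-Y box or the CHR on either strand. The Cdc20 run is chr4:118437344-118437463 (minus strand), that of Bub1 chr2:127831860-127831979 (minus), that of Fzr1 chr10:81378371-81378490 (minus) and that of Bub3, at the first of its 2 starts, chr7:131560250-131560369 (plus).
Cdc20: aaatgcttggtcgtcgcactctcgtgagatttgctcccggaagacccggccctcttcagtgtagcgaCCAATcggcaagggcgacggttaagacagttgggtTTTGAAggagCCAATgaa
Bub1: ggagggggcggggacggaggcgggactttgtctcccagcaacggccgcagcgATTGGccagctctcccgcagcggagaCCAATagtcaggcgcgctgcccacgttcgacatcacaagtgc
Fzr1: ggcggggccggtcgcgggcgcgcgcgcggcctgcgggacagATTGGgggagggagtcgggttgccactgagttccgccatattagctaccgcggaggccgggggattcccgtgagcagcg
Bub3: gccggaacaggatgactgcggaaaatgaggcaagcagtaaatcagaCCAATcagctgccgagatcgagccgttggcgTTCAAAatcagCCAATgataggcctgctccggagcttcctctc

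The Cdc20 and Bub3 runs both hold a CHR between NF-Y boxes, and the Bub1 run holds a pair of NF-Y boxes with its CHR after the start. All 10 genes matched the promoter table by symbol, and the search covered 250 bases before and 50 bases after each start. The NF-Y box was searched as CCAAT, the CHR as TTTGAA or TTCGAA, and the E2F site as TTTCCCGC, TTTGGCGC, TTTCGCGC or TTTGCCGC, each on both strands. An NF-Y box was found in 8 of the 10 genes, against 37.4% of all 32851 promoters in the table. A CHR was found in 7 of the 10, against 19.2% of all promoters, and before the start alone in 4 of the 10, against 17.1%. The E2F letters occurred in 0 of the 10 and in 2.26% of all promoters. These matches are descriptions of letters in a window.

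Of the 10 genes, 5 fell in the knockdown, 0 rose and 5 did not pass, by limma at a Benjamini-Hochberg adjusted p under 0.05 over all 45037 probe sets tested. Among all 18193 genes, 1.63% fell and 2.23% rose. Since the 10 genes were chosen with earlier results of these data known, this contrast is a description. Each gene is counted through its representing probe set, the one with the highest mean. Bub1, Bub1b, Cdc20, Pttg1 and Ttk fell, Ube2c, Mad2l1 and Fbxo5 were lower without passing, and Fzr1 and Bub3 lay near 0. At an unadjusted p under 0.05 by limma, 8 of the 10 were lower and 0 higher, where 2331 of all 45037 probe sets were lower. That background counts probe sets, and the shares of all genes lower or higher at this threshold are not given here. The 0 is therefore not read as a result. The 3 knockdown values lay below the 3 control values for the same 8 genes, where 9.5% of all genes showed such separation. The median log2 difference over the 10 genes was -1.08, and over all genes it was 0.

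**Figure D2:**
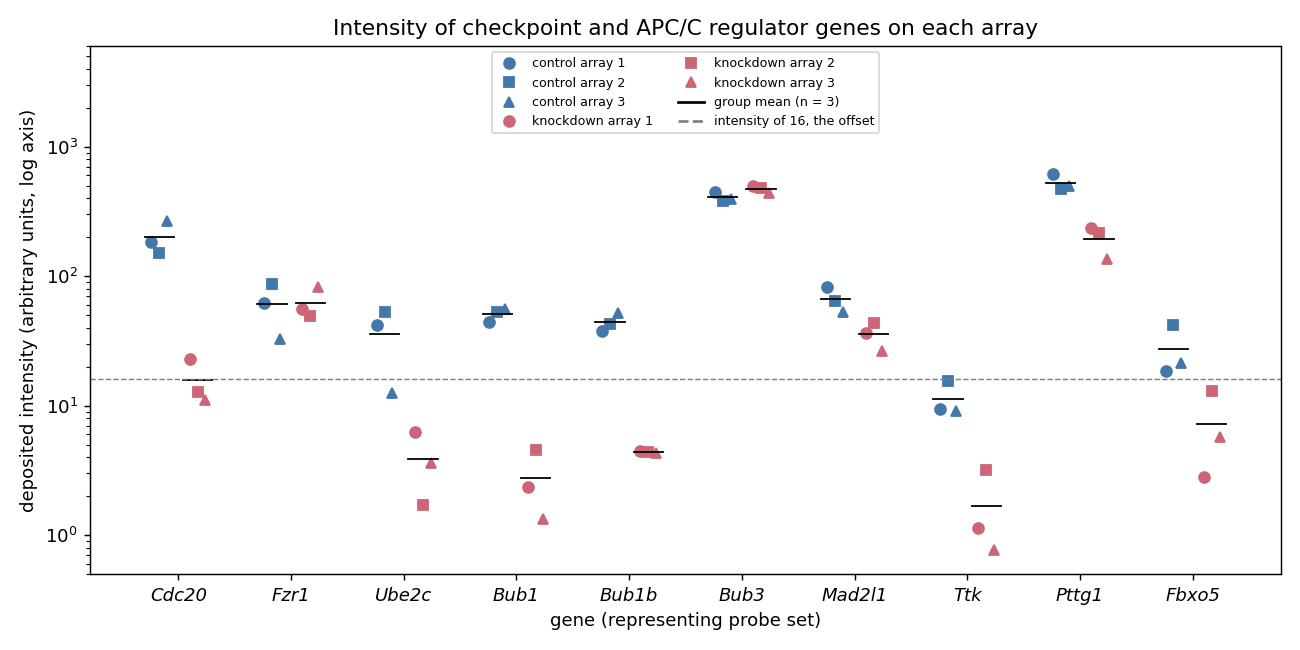
Deposited intensity (log axis, arbitrary units) of the representing probe set of each gene on the 6 arrays, control in blue and knockdown in red, with a symbol per replicate number, black bars for group means and a dashed line at the offset of 16. For Cdc20, Ube2c, Bub1, Bub1b, Mad2l1, Ttk, Pttg1 and Fbxo5 every knockdown point lies below every control point, and for Fzr1 and Bub3 the groups overlap.

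Some arrays stood apart from the rest of their group. Control array 3 had a Gapdh 5′ to 3′ ratio of 0.0992, where the other arrays had 0.704 to 1.14, and the added Dap spike transcript was low on control array 3 (39.9) and knockdown array 3 (38.8), where the other arrays had 126 to 254. Without control array 3, 4 of the 10 genes fell (Ube2c in place of Pttg1 and Ttk) and the median was -1.18. Without control array 1, knockdown array 1 or knockdown array 2 in turn, 3 of the 10 fell: Cdc20, Bub1 and Bub1b. Within the 4 arrays of higher spike signal 2 of the 10 fell, Bub1 and Bub1b. Prdm2 had means of 69.0 ± 20.0 and 46.1 ± 15.2 (SD, n = 3 each) at its brightest probe set, without passing (adjusted p = 0.441). The cells carried myoblast transcripts: all 8 of the listed markers had a mean above 16 in at least 1 group, with 1 of them (Vcam1) higher and 1 (Myf5) lower. Of 28 markers of other cell types, 19 stayed below 16 in both groups. On each array 55.1 to 58.2% of all probe sets read below 16. Of these 28 markers 0 passed. With 1.63% of all genes lower and 2.23% higher, that 0 is not read as a result. Some others were bright, such as Cd14 (342 ± 40.4 in the control and 219 ± 10.7 in the knockdown) and Csf1r (113 ± 32.9 and 61.9 ± 26.2). Markers of differentiated muscle moved with the comparison: 7 of 8 rose, and the summed intensity of all 8 was 228 to 416 in the control and 6670 to 8460 in the knockdown. The other, Ckm, was lower without passing (81.1 ± 33.7 and 51.0 ± 15.8, log2 difference -0.58). In the control Mymk averaged 4.08 and Ttn 15.0, both below 16. The part of these muscle markers in the falls below was not tested. In such bulk samples, fewer dividing cells and less of a transcript per cell cannot be told apart.

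Cdc20, the mitotic activator, had the largest fall of the 10 genes. Its brightest probe set (1439377_x_at) read 184, 150 and 266 in the control, in the order of arrays 1, 2 and 3 used throughout, and 23.1, 12.8 and 11.1 in the knockdown. The groups lay far apart, with control array 3 the highest and knockdown array 1 the highest of the low group. Average intensity was 15.6 ± 6.52 in the knockdown against 200 ± 59.4 in the control (SD, n = 3 each). The log2 difference, of normalized values with the offset of 16, was -2.79 (SE 0.287, limma adjusted p = 0.00744), the 9th lowest of 18193 genes. The exact two-sided permutation p was 0.1, the smallest that 3 arrays against 3 can give, as it was for every gene whose groups lay apart.

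The suffix x marks a probe set whose probes may also match other sequences, and the other probe sets of Cdc20 went the same way. The probe set without a suffix of this kind (1416664_at) read 67.6, 83.2 and 95.7 in the control and 18.6, 13.9 and 16.1 in the knockdown. It fell by 1.64 (SE 0.173, limma adjusted p = 0.00808). The third (1439394_x_at) averaged 48.7 ± 19.2 in the control and 11.4 ± 3.07 in the knockdown, apart but not passing (log2 difference -1.23, adjusted p = 0.0944). The calls of the first and second probe set held without any 1 array, but ended within the 4 arrays of higher spike signal, at an adjusted p of 0.0572 and 0.0678.

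Fzr1, the activator of G1 and rest, showed no such fall. Its single probe set read 62.6, 87.3 and 32.9 in the control and 56.1, 48.9 and 81.9 in the knockdown. The groups overlapped throughout, and control array 3 was the lowest value and control array 2 the highest. The log2 difference was 0.00, with a 95% interval of -0.62 to 0.62 (limma adjusted p = 1), so that a moderate change in either direction is not excluded by these arrays. The sign differed between subsets: -0.41 in the 4 arrays with a high spike and 0.83 for the other pair.

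The change of Cdc20 relative to Fzr1 was taken array by array, a comparison chosen after the values were seen. The log2 value of Cdc20 minus that of Fzr1, set to a control mean of 0, was -0.24, -0.83 and 1.07 on the control arrays and -2.35, -2.70 and -3.34 on the knockdown arrays. The groups lay apart, with a difference of -2.80 between their means and SDs of 0.976 and 0.498 (exact two-sided permutation p = 0.1).

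Ube2c, the enzyme that passes ubiquitin to APC/C substrates, was lower on every knockdown array without passing the test. It read 41.9, 52.6 and 12.6 in the control and 6.25, 1.70 and 3.60 in the knockdown. Control array 3 stood well below the other control arrays, yet above all knockdown arrays, all of which read below 16, as did 55.1 to 58.2% of all probe sets on each array. The means were 35.7 ± 20.7 and 3.85 ± 2.29, and the log2 difference was -1.28 (SE 0.304, 95% interval -2.01 to -0.54, limma adjusted p = 0.121). Without control array 3 the difference was -1.66 and passed, at an adjusted p of 0.01. The part of that array's low 5′ to 3′ ratio in this was not tested.

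Fbxo5, which encodes the APC/C inhibitor Emi1, was lower as well. It read 18.7, 42.1 and 21.3 in the control and 2.84, 13.1 and 5.72 in the knockdown. Array 2 was the highest in both groups, and the highest knockdown value lay under the lowest control value. The log2 difference was -0.89 (SE 0.22, 95% interval -1.42 to -0.35), which did not pass (limma adjusted p = 0.137).

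Pttg1, which encodes securin, the APC/C substrate that holds separase inactive, fell from a high level. Its brightest probe set (1438390_s_at) read 616, 471 and 497 in the control and 236, 214 and 136 in the knockdown, and the highest knockdown array lay well under the lowest control array. Average intensity in the knockdown was 37.0% of that in the control. Pttg1 fell by 1.48 on the log2 scale (SE 0.214, limma adjusted p = 0.024), but the call ended without control array 1 or 3 (adjusted p = 0.103 and 0.0875) and without knockdown array 1 or 2 (0.0708 and 0.0739). A second probe set (1424105_a_at) averaged 88.6 ± 24.8 in the control and 39.3 ± 6.47 in the knockdown without passing (log2 difference -0.96, adjusted p = 0.0625), and the third was dim in both groups, at 6.27 ± 4.30 and 4.06 ± 1.85.

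Bub1 and Bub1b, related genes of the checkpoint, fell from moderate levels to below 6 on every knockdown array. Bub1, a kinase that recruits other checkpoint proteins to the kinetochore, read 44.2, 52.5 and 55.7 in the control and 2.37, 4.59 and 1.34 in the knockdown. No knockdown array came near a control array, and the means were 50.8 ± 5.93 and 2.77 ± 1.66. At such low knockdown values the ratio of the means is not well measured, and none is given. Bub1 fell by 1.87 (SE 0.135, limma adjusted p = 0.00209). The offset compresses this change: the log2 difference was -3.91 with an offset of 1 and -0.80 with an offset of 64, and it passed with both. The other Bub1 probe set (1438571_at) read below 6 on all 6 arrays and differed by 0.09.

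Bub1b, which encodes the BubR1 subunit of the complex that inhibits Cdc20, had knockdown values that hardly varied. Its brightest probe set (1416961_at) read 38.1, 43.0 and 51.7 in the control and 4.45, 4.40 and 4.30 in the knockdown, and it fell by 1.59 (SE 0.143, limma adjusted p = 0.00476). A second (1447363_s_at) went from 34.3 ± 12.2 to 2.65 ± 1.46 and fell by 1.44 (limma adjusted p = 0.0347). This call was lost when control array 1 was left out (0.116), and likewise for each knockdown array (0.126, 0.13 and 0.144). The third was dim in both groups, at 3.11 ± 0.173 and 2.66 ± 1.68. For the representing probe sets of Bub1 and Bub1b the calls held without any 1 array.

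Bub3, the partner through which Bub1 and BubR1 reach the kinetochore, did not fall with them. Its brightest probe set (1416815_s_at) read 449, 383 and 396 in the control and 500, 476 and 441 in the knockdown, with overlapping groups. The log2 difference was 0.12 (95% interval -0.14 to 0.38, limma adjusted p = 0.801). A dimmer probe set (1448473_at) read 40.9, 37.5 and 33.2 against 54.2, 56.1 and 54.1, higher on every knockdown array, and did not pass (log2 difference 0.36, adjusted p = 0.125). The remaining 3 probe sets had means under 16 in both groups, with log2 differences from -0.25 to -0.07.

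Bub1 was also set against Bub3 array by array, again a comparison chosen after the values were seen. Bub1 minus Bub3, set to a control mean of 0, was -0.20, 0.09 and 0.10 on the control arrays and -2.06, -1.86 and -2.04 on the knockdown arrays. The corresponding difference between group means was -1.98 for Bub1 and -1.71 for Bub1b, and the groups lay apart in both (exact two-sided permutation p = 0.1 each).

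Mad2l1, the checkpoint protein that binds Cdc20 directly, was lower by less. It read 82.4, 64.9 and 53.4 in the control and 36.6, 43.9 and 26.7 in the knockdown. The groups lay apart by a small margin, between control array 3 and knockdown array 2. Average intensity in the knockdown was 53.4% of that in the control, for a log2 difference of -0.73 (SE 0.156, 95% interval -1.10 to -0.35), which did not pass (limma adjusted p = 0.087).

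Ttk, the kinase at the top of the checkpoint, was dim throughout. Its brighter probe set (1449171_at) read 9.47, 15.5 and 9.09 in the control and 1.13, 3.18 and 0.77 in the knockdown, all below the offset of 16. It passed narrowly, with a log2 difference of -0.61 (SE 0.107, limma adjusted p = 0.0472). That call ended without any 1 of the 6 arrays, where the adjusted p lay between 0.0913 (without control array 2) and 0.189 (without knockdown array 1). The other probe set (1442594_at) averaged 6.84 ± 0.224 in the control and 2.75 ± 0.592 in the knockdown, also apart without passing (log2 difference -0.28, adjusted p = 0.164).

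**Figure D3:**
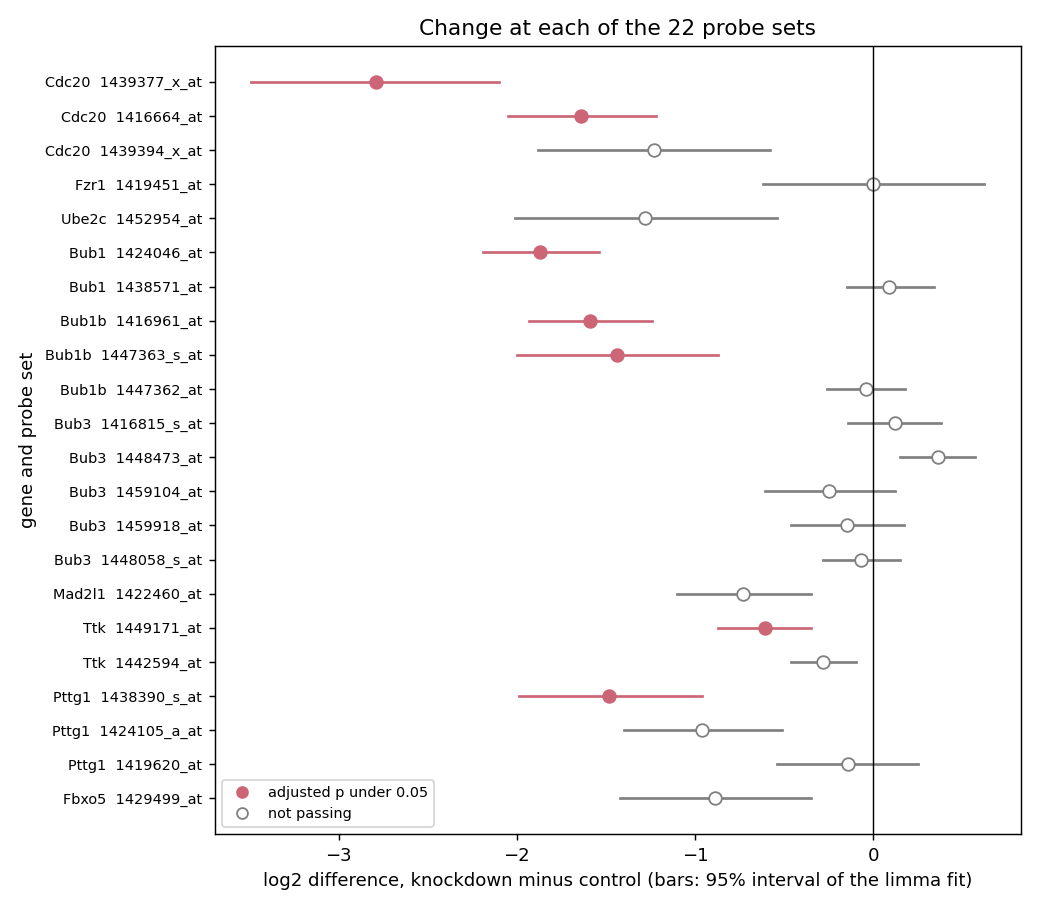
Log2 difference (knockdown minus control, horizontal axis) at each of the 22 probe sets, with 95% intervals of the limma fit as bars; red filled points passed at an adjusted p under 0.05. The 7 passing probe sets are all lower and belong to Cdc20, Bub1, Bub1b, Ttk and Pttg1, while Fzr1 and 4 of the 5 probe sets of Bub3 have intervals that include 0, and 1 of Bub3 lies above 0 at 0.36 without passing.

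Over all 22 probe sets, 7 fell, 0 rose and 15 did not pass. Of all 45037 probe sets 2.43% passed, 1.01% as lower and 1.42% as higher. The groups lay apart, with the knockdown lower, at 13 of the 22, against 7.86% of all probe sets. At an unadjusted p under 0.05 by limma, 13 were lower and 1, of Bub3, was higher, where 2331 of all 45037 were lower. The share of all probe sets higher at that threshold is not given here, so that 1 is not read as a result. Probe sets of one gene share its transcripts and are not independent. Means were under 16 in both groups at 8 of the 22: 3 probe sets of Bub3, both of Ttk, and 1 each of Bub1, Bub1b and Pttg1. Not all probe sets that missed the threshold in a falling gene were so dim, since 1439394_x_at of Cdc20 and 1424105_a_at of Pttg1 were not. Each of the 5 genes with 1 falling probe set or more also had at least 1 that did not pass.

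The genes that moved most like Cdc20 over the 6 arrays, by the root mean squared distance between log2 profiles set to a control mean of 0, were Pdlim1 (0.243), Birc5 (0.259), Mki67 (0.268), Rnf144b (0.375) and Pbk (0.417). Their log2 differences ran from -2.89 to -2.44. The genes most like Fzr1 were Ephb4 (0.0732), Ube2s (0.0841), Sfr1 (0.0915), Elmo2 (0.0987) and Dcaf17 (0.102), with log2 differences from -0.05 to 0.05.

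Cdc20 and Fzr1 activate a complex whose core genes were measured as well. Of 14 core subunits of the APC/C, 0 passed in either direction by limma, with a median log2 difference of 0.04. Since 1.63% of all genes fell and 2.23% rose, a count of 0 in a list of this size says nothing particular about these subunits. At an unadjusted p under 0.05, 1 was lower (Anapc1, log2 difference -0.36) and 1 higher (Anapc11, 0.33), and ordinary statistics also gave 1 and 1. With 2331 of all 45037 probe sets lower at that threshold by limma, these counts of 1 are not read as a result. Anapc5 read 696 ± 84.1 and 568 ± 56.7 (log2 difference -0.36, adjusted p = 0.518), and Anapc13 read 457 ± 88.7 and 575 ± 57.2 (0.25, adjusted p = 0.754). The subunits' summed intensity was 3820 to 4090 in the control and 3990 to 4230 in the knockdown. Cdc20 was also set against the median of the core subunits, a comparison not planned beforehand. The difference was -0.15, -0.27 and 0.42 on the control arrays and -2.45, -2.94 and -3.05 on the knockdown arrays. These lay apart (exact two-sided permutation p = 0.1). The core median itself lay between -0.15 and 0.18, so this restates the fall of Cdc20.

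**Figure D4:**
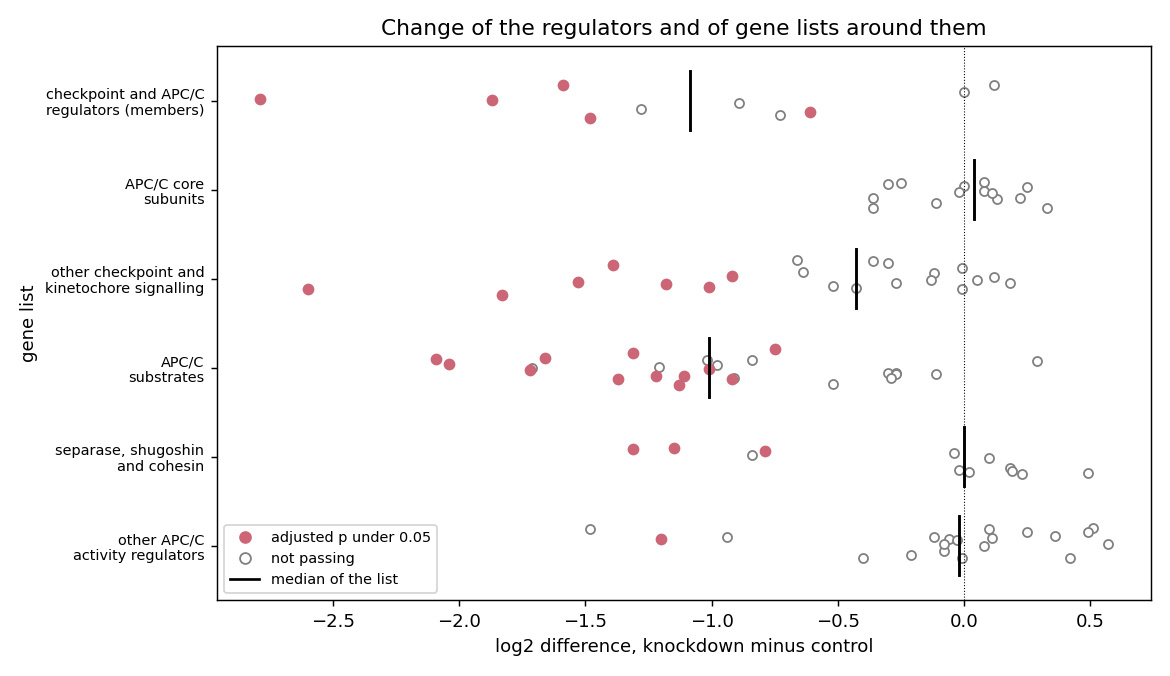
Log2 difference (knockdown minus control, horizontal axis) of the 10 genes and of 5 lists of genes around them, a point per gene through its representing probe set, red where the adjusted p was under 0.05, with a black bar at the median and random vertical scatter. Medians are -1.08 for the 10 genes, 0.04 for the APC/C core, -0.43 for other checkpoint genes, -1.01 for APC/C substrates, 0.00 for the separase and cohesin list and -0.02 for other activity regulators.

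Besides the 10 genes, 89 other listed genes of the pathway were measured, counted once each. Of these 21 fell, 0 rose and 68 did not pass, where 1.63% of all genes fell and 2.23% rose. The lists too were chosen with earlier results of these data known, so the contrast is a description. At an unadjusted p under 0.05 by limma, 1 core subunit, 12 checkpoint genes, 20 substrates, 3 separase and cohesin genes and 3 activity regulators were lower, and Anapc11, Stag1, Mad2l2, Skp1, Cdc14a and Cdc14b were higher. Of 21 other checkpoint and kinetochore genes 7 fell (median -0.43): the largest log2 differences were those of Birc5, a subunit of the chromosomal passenger complex (-2.60), Spc25, a subunit of the Ndc80 complex (-1.83), and Cdca8, also of the passenger complex (-1.53). Zwint (446 ± 116 and 423 ± 38.1, log2 difference -0.12) and Nup107 (-0.43) did not pass. Of 25 APC/C substrates 12 fell (median -1.01): the largest were Anln, which encodes anillin (-2.09), the cyclin gene Ccnb2 (-2.04) and Rrm2, a subunit of ribonucleotide reductase (-1.72). Cks1b (-0.98) and Kif22 (-1.71) did not pass.

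Separase itself, the protease that securin holds back, fell with securin, and the cohesin that it cuts did not pass. Of 12 genes in that list 3 fell, against 1.63% of all genes: Espl1, which encodes separase, by 1.31 (limma adjusted p = 0.00303), and the shugoshins Sgo2a and Sgo1, protectors of cohesin at centromeres, by 1.15 and 0.79. The cohesin genes Rad21 (647 ± 177 and 711 ± 87.0, log2 difference 0.10) and Stag2 (0.18) did not pass. Of 20 other regulators of APC/C activity 1 fell, Cdk1, the mitotic kinase, by 1.20, and the phosphatase and ligase genes Ppp2ca and Fbxw11 differed by -0.08 and -0.21 without passing. With 1.63% of all genes lower, 1 of 20 is not read as a result about that list.

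Many of these counts were lower when 1 array was left out, which also left fewer arrays to fit. Which of the 2 lowered them was not tested. The 7 checkpoint genes, 12 substrates and 3 separase and cohesin genes became 3, 6 and 1 when control array 1 was dropped, and 2, 6 and 1 when knockdown array 1 was. Without knockdown array 2 the checkpoint genes numbered 3 and the substrates 5, and without knockdown array 3 they numbered 2 and 7. The call of Cdk1 ended without control array 1 or 3 or knockdown array 1 (adjusted p = 0.076, 0.0595 and 0.07). Anln had an adjusted p of 0.116, 0.063 and 0.0973 without control array 1, 2 or 3 and 0.0922 without knockdown array 2. For Spc25 it was 0.0627, 0.0683 and 0.0518 when control array 1, knockdown array 1 or knockdown array 3 was dropped, and Cdca8 had 0.0831 when control array 1 was dropped and 0.0749, 0.119 and 0.119 when knockdown array 1, 2 or 3 was. Rrm2 passed with all arrays at 0.0499 and did not pass when any 1 array other than knockdown array 3 was dropped (0.0625 to 0.178). Sgo2a had 0.069, 0.0606 and 0.0793 without control array 1 or 3 or knockdown array 1, and Sgo1 had 0.0836 when control array 1 was dropped and 0.116, 0.101 and 0.0879 when knockdown array 1, 2 or 3 was. Birc5, Ccnb2 and Espl1 passed without any 1 array.

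**Figure D5:**
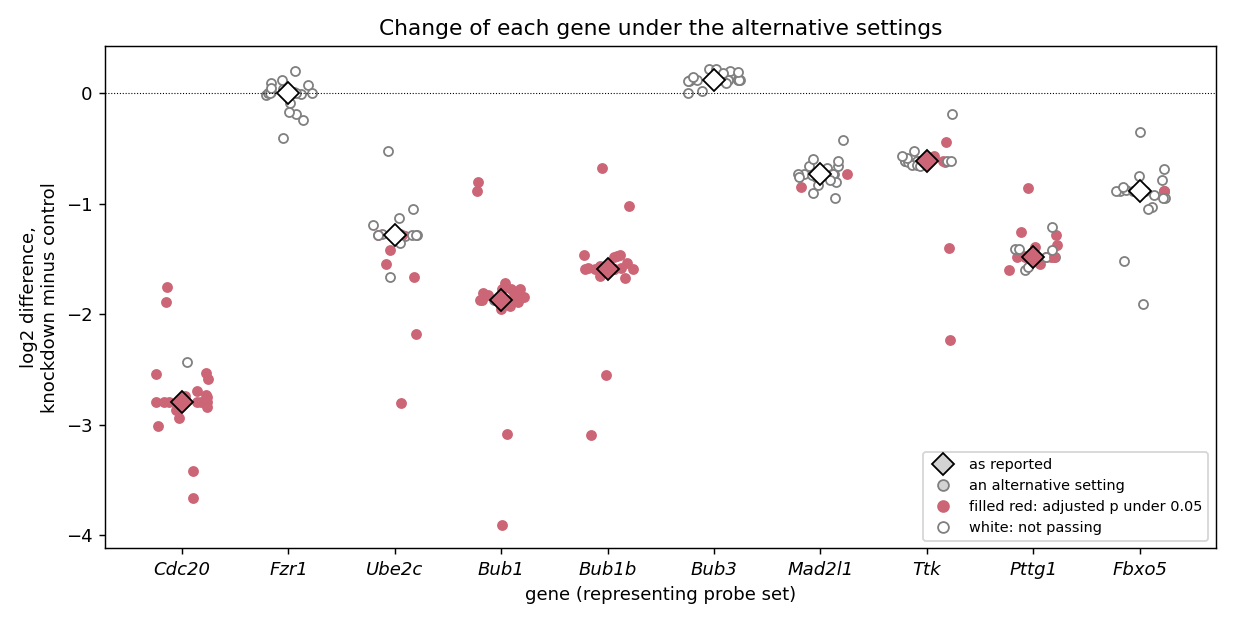
Log2 difference (knockdown minus control, vertical axis) of each gene as reported (diamonds) and under the alternative settings (circles), red where the adjusted p was under 0.05. Cdc20, Bub1 and Bub1b lie below 0 and nearly always pass, Pttg1 and Ttk pass in part of the settings, and Fzr1 and Bub3 never pass.

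The direction of the 8 lower genes was the same under every alternative tried, while their calls were not. Of 23 alternatives, Bub1 and Bub1b passed in 22 and Cdc20 in 21. With ordinary statistics, which do not share the spread across probe sets, the adjusted p was 0.0541 for Bub1, 0.0774 for Bub1b and 0.113 for Cdc20. Pttg1 passed in 15, with log2 differences from -1.60 to -0.86, and Ttk in 7 of the 22 that kept it. Ube2c passed in 7, Mad2l1 in 2 and Fbxo5 in 1. Fzr1 and Bub3 passed in 0, with log2 differences from -0.41 to 0.20 and from 0.00 to 0.22.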

How the data were processed

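Per the labels' protocols, 8 µg of Trizol-extracted RNA per sample went into biotin-labelled cRNA for Affymetrix arrays. The authors deposited 1 linear intensity per probe set and array. The submitters' processing notes name the programs GCOS and PLIER and give no version; background correction and normalization between arrays are not given in the sources used here. Intensities were quantile normalized as log2(intensity + 16) and fitted with limma 3.58.1 (R 4.3.3, lmFit and eBayes) over 45037 probe sets, leaving out 64 control probe sets. The offset understates changes of dim genes. Means ± SD are of deposited values, log2 differences of normalized ones. Median intensity was 10.6 to 12.1 per array, and the number of arrays limits precision. Symbols came from the platform annotation (1 symbol for 34945 probe sets, several for 932, none for 9160), and 34741 of the first kind matched the mouse gene table by Entrez identifier. A gene's representing probe set has the highest mean normalized log2 value. Named genes are the 10 genes, Prdm2, in each list up to 3 largest passing falls and rises and the 2 brightest not passing, and the 5 profiles nearest to Cdc20 and Fzr1; markers, Anapc1 and the 6 pathway genes higher at an unadjusted p were named after their values were seen. The genes and lists were chosen with earlier results of these data known. The lists held 14, 22, 26, 12 and 20 genes, of which 14, 21, 25, 12 and 20 were measured; some genes are in more than 1. On simulated data with 200 changed probe sets, the fit called 53% of the 2-fold and 84% of the 4-fold changes. Of its calls, 5.52% were unchanged probe sets. These changes were set on the scale of intensity + 16, at probe sets drawn at random, dim ones included. A dim probe set cannot fall that far on this scale, so these shares do not apply to the falls of dim genes. Promoter sequences are RefSeq's (GRCm38.p6).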

Additional observations from a re-analysis of the deposited data

How the results depend on the processing

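Under 17 settings and 6 omissions of 1 array, the count of the 10 genes that fell was 5 as reported and 4 to 7 under 15 of the settings. With ordinary statistics in place of eBayes it was 0 (8 lower at an unadjusted p under 0.05), and 0 of the 22 probe sets, 161 of all probe sets, 1 checkpoint gene, 2 substrates, 1 separase and cohesin gene and 0 other regulators passed. With the 4 arrays of higher spike signal the counts were 2 genes, 2 probe sets, 184 of all probe sets, 2 checkpoint genes, 3 substrates, 1 separase and cohesin gene and 0 other regulators; fewer arrays were fitted. Leaving out 1 array gave 3 to 4 of the 10 genes, 4 to 7 of the 22 probe sets, 385 to 906 of all probe sets (1094 with all arrays), 2 to 6 checkpoint genes, 5 to 10 substrates, 1 to 3 separase and cohesin genes and 0 to 2 other regulators. Array weights gave 11 of the 22 probe sets, 1981 of all probe sets and 3 other regulators; an offset of 64 gave 4 checkpoint genes and 7 substrates; the spike signal as a block gave 4 checkpoint genes; and a low-value filter, an intensity trend and 1 probe set per gene each gave 2 other regulators. The cause was not tested for these. The core subunits stayed at 0 throughout. The filter left Ttk untested, and per-gene tables give no count of probe sets.

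The deviations of same-numbered arrays correlated at 0.36 for number 1, the highest of the 9 pairs, 0.10 for number 2 and 0.01 for number 3. Since not every pair exceeded 0.1, the numbers were not treated as pairs; control array 2 correlated best with knockdown array 3. The replicate block gave 592 of all probe sets, 4 of the 10 genes (Fbxo5 passed at an adjusted p of 0.0314, Pttg1 and Ttk did not, at 0.0735 and 0.0694), 2 checkpoint genes, 5 substrates, 1 separase and cohesin gene and 0 other regulators. No result that had passed reversed its direction.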
